A study of Mus musculus with 2 samples.

Results

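The Kcnq1ot1 imprinted domain on distal mouse chromosome 7 was followed through 8 genes, chosen by name from the 31053 genes of the count matrices. They are the noncoding RNA Kcnq1ot1 and 7 protein-coding genes around it, Cdkn1c, Phlda2, Slc22a18, Tssc4, Cd81, Nap1l4 and Ascl2. Single-cell RNA-seq compared parental E14 mouse embryonic stem cells (WT) with a derivative line from which both Smad1 and Smad5 had been knocked out by CRISPR-Cas9 (S1/5 dKO). Both grew feeder-free in serum with LIF, and each genotype gave 1 library of 1 culture. SMAD1 and SMAD5 carry BMP signals to chromatin, and the question was what their loss changes in pluripotent cells.

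With 1 library per genotype no test between genotypes could be made. Intervals are exact 95% Poisson or binomial intervals that cover counting error only, and they say nothing of the spread between cultures or between knockout lines. Cells were kept at 1000 or more detected genes and at most 5% mitochondrial UMIs (unique molecular identifiers, each marking 1 captured RNA). This left 2236 WT cells with 95965242 UMIs and 2910 S1/5 dKO cells with 109020533 UMIs, at medians of 38662 and 34548.5 UMIs per cell. No cell barcode occurred in both libraries. Doublets were not called, and 135 WT and 140 S1/5 dKO cells held more than 2 times the median UMIs of their library.

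The 8 pluripotency genes examined (Pou5f1, Nanog, Sox2, Zfp42, Klf4, Esrrb, Dppa5a and Tdgf1) were present in both libraries and differed by −0.03 to 0.18 in log2. Genes that define other cell types were at or near 0. The summed level was 1.38 and 1.49 counts per 1000000 UMIs (CPM) for 8 trophoblast genes, 2.58 and 2.46 CPM for 6 endoderm genes, and 0.802 and 1.05 CPM for 6 fibroblast genes, in WT and S1/5 dKO. For the targeted genes the WT and S1/5 dKO libraries gave 13.4 and 9.17 CPM of Smad1, and 6.05 and 9.09 CPM of Smad5, which was thus higher in the library labelled S1/5 dKO. A 3′ count of a CRISPR-edited gene need not fall, so these values do not check the label.

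Imprinted genes are expressed from only 1 parental copy, and the choice is fixed by DNA methylation laid down in the egg or the sperm. In this domain the start of Kcnq1ot1 lies in a region methylated on the maternal copy, so the long nuclear RNA is made from the paternal copy. Kcnq1ot1 is known to silence neighbouring genes on the copy that makes it, with the widest reach in placenta. Cdkn1c, Phlda2, Slc22a18 and, in placenta, Tssc4, Cd81 and Ascl2 are then expressed mainly or solely from the maternal copy. The 3′ counts do not separate the parental copies, so every level here is the sum of both.

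In the GRCm38 build Kcnq1ot1 spans chr7:143203458-143296549 on the minus strand, antisense within Kcnq1. Ascl2 (chr7:142966829-142969264), Cd81 (chr7:143052739-143067934) and Tssc4 (chr7:143069249-143071093) lie at lower coordinates, with start sites at −327.3, −243.8 and −227.3 kb from the Kcnq1ot1 start. On the other side are Cdkn1c (chr7:143458339-143461050), Slc22a18 (chr7:143473736-143499334), Phlda2 (chr7:143501545-143503150) and Nap1l4 (chr7:143513579-143549106), at 164.5, 177.2, 206.6 and 252.6 kb. No member overlapped another gene on its own strand. Cdkn1c overlaps Gm44732 and Tssc4 overlaps Trpm5 on the opposite strand.

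The window around the Kcnq1ot1 start is shown because it lies in the element whose methylation sets the imprint. It is the 300 bases of chr7:143296498-143296797 on the minus strand, from 250 bases before to 50 bases after the RefSeq start (GRCm38.p6), with its CpG dinucleotides in capitals.
Kcnq1ot1: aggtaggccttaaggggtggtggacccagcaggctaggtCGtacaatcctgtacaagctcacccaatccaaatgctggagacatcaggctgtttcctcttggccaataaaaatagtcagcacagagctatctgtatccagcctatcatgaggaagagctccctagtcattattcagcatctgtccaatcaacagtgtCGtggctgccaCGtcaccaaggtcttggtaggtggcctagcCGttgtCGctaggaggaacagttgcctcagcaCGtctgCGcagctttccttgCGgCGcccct
The window holds 9 CpGs, against a median of 7 over 32851 windows of the same length. RefSeq windows were matched for 6 of the 8 members, and among the coding genes they held 26 CpGs at Phlda2, 23 each at Cd81, Tssc4 and Ascl2, and 2 at Slc22a18. The letters GGCGCC, which SMAD1/5 can bind and which read the same on both strands, occurred in the Kcnq1ot1 window, starting at base 292, and in the Phlda2 window. They occur in 11.9% of all windows. The ZFP57 letters TGCCGC, searched on both strands, occurred in none of the 6 windows and in 11.6% of all windows. These are matches of letters, not evidence of binding.

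Between the libraries Kcnq1ot1 was higher and Cdkn1c and Phlda2 were lower in S1/5 dKO cells. Kcnq1ot1 was at 96.3 CPM in WT (9242 UMIs, interval 94.4 to 98.3) and at 116 CPM in S1/5 dKO (12673 UMIs, interval 114 to 118). The log2 ratio of S1/5 dKO over WT was 0.27, with an interval of 0.23 to 0.31. Among 1740 genes of like level (a mean CPM within 2 times its own), 97.2% had a lower ratio.

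Cdkn1c encodes a cyclin-dependent kinase inhibitor that limits growth. It was at 76.0 CPM in WT (7297 UMIs) and 55.7 CPM in S1/5 dKO (6072 UMIs), a log2 ratio of −0.45 (interval −0.50 to −0.40). Phlda2 encodes a small pleckstrin-homology protein that restrains placental growth. It was at 135 CPM in WT (12933 UMIs) and 88.6 CPM in S1/5 dKO (9662 UMIs), a log2 ratio of −0.60 (interval −0.64 to −0.57). The S1/5 dKO library thus held 73.2% of the WT level of Cdkn1c and 65.8% of that of Phlda2. Of 1688 genes at a level like that of Phlda2, 0.296% had a lower ratio, and of 2223 genes at a level like that of Cdkn1c, 1.03% had.

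Cd81 encodes a tetraspanin of the cell surface. It was at 342 CPM in WT and 296 CPM in S1/5 dKO, a log2 ratio of −0.21 (interval −0.23 to −0.19), and 25 of 750 genes of like level had a ratio as low or lower. Tssc4, a factor of spliceosomal particle assembly, was at 46.3 and 44.3 CPM, a log2 ratio of −0.06 (interval −0.12 to −0.003). Nap1l4, a histone chaperone, was at 93.9 and 98.5 CPM, a log2 ratio of 0.07 (interval 0.03 to 0.11). These last values are small, and the spread between cultures that they would have to exceed is not known.

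The remaining members were sparse. Ascl2, a transcription factor of the trophoblast lineage, had 254 UMIs in WT and 219 in S1/5 dKO (2.65 and 2.01 CPM), a log2 ratio of −0.40 with an interval of −0.67 to −0.13. Slc22a18, a membrane transporter of the organic cation family, had 131 and 128 UMIs (1.37 and 1.17 CPM), a log2 ratio of −0.22 whose interval of −0.58 to 0.15 includes 0. At an equal 10000 UMIs per cell the ratio of Ascl2 was −0.05, from 55 WT and 66 S1/5 dKO cells with a UMI, and over 20 other thinning draws it had a median of −0.21 and ranged from −0.75 to 0.12.

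Thus 3 of the 8 members (Cdkn1c, Phlda2 and Ascl2) lay at a log2 ratio of −0.3 or lower, and 0 lay at 0.3 or higher. All 8 had the 50 UMIs needed to be counted, and of all 13654 such genes 9.54% lay at −0.3 or lower and 7.62% at 0.3 or higher. The median log2 ratio of the 7 coding members was −0.22, against −0.007 over all 13654 genes. Alternative cell filters, thinning and scaling moved the ratio of Phlda2 between −0.63 and −0.58, that of Cdkn1c between −0.45 and −0.37 and that of Kcnq1ot1 between 0.20 and 0.28.

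**Figure D1:**
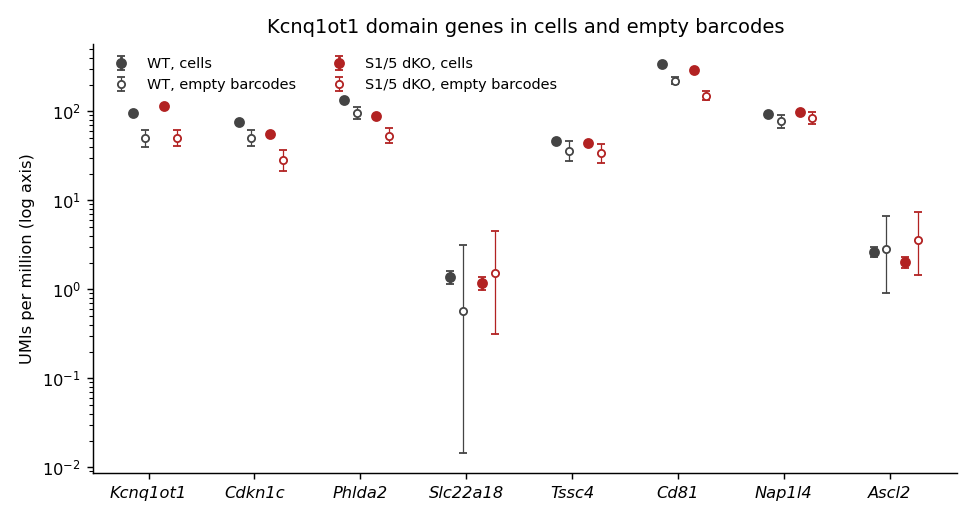
Level of the 8 domain genes in CPM on a log axis, in cells (filled points) and in empty barcodes of 10 to 100 UMIs (open points) of each library, with exact 95% Poisson intervals. Cdkn1c and Phlda2 are lower in S1/5 dKO in cells and in empty barcodes, and for Kcnq1ot1 the intervals are apart in cells and overlap in empty barcodes.

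Barcodes of 10 to 100 UMIs hold free RNA rather than cells, and give the background level of each gene. For Phlda2 this was 95.2 CPM in WT (168 UMIs) and 53.6 CPM in S1/5 dKO (105 UMIs), and for Cdkn1c 50.4 and 28.6 CPM, so both differed in the free RNA in the same direction as in the cells. Kcnq1ot1 was at 49.9 and 50.6 CPM in empty barcodes, about equal in the libraries and below its level in cells. These barcodes held 1764311 UMIs in WT and 1958216 in S1/5 dKO, and the share of free RNA within the cells was not measured.

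Along the region the lower ratios did not extend evenly with distance. Cdkn1c and Phlda2, at 164.5 and 206.6 kb from the Kcnq1ot1 start, had the lowest ratios of the abundant genes, while Nap1l4 and Cars, at 252.6 and 303.5 kb on the same side, were at 0.07 and 0.07. Of 20 other genes listed for the region, 8 had 50 or more UMIs. Cars, which encodes a cysteinyl-tRNA synthetase, Dhcr7 (0.02), the last enzyme of cholesterol synthesis, and Mrpl23 (−0.03), a mitochondrial ribosomal protein, lay near 0. The lysosomal protease Ctsd was at −0.19. Tspan32, at −291.5 kb, was at −0.27 (188 and 177 UMIs, interval −0.58 to 0.03), and Tnfrsf22, at 353.1 kb, was at −0.22 (211 and 206 UMIs, interval −0.50 to 0.07). Their intervals include 0, so a lower level in S1/5 dKO was not detectable at this depth. Nadsyn1 was the 1 neighbour at −0.3 or lower, at −0.36 from 60 and 53 UMIs, with an interval of −0.92 to 0.19. H19, a noncoding RNA of the adjoining imprinted cluster, was the 1 neighbour at 0.3 or higher, with 4 UMIs in 4 WT cells and 93 UMIs in 41 S1/5 dKO cells, a log2 ratio of 4.36 with an interval of 2.95 to 6.26. Kcnq1 itself had 2 and 3 UMIs, so transcripts of the host gene could not be followed.

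**Figure D2:**
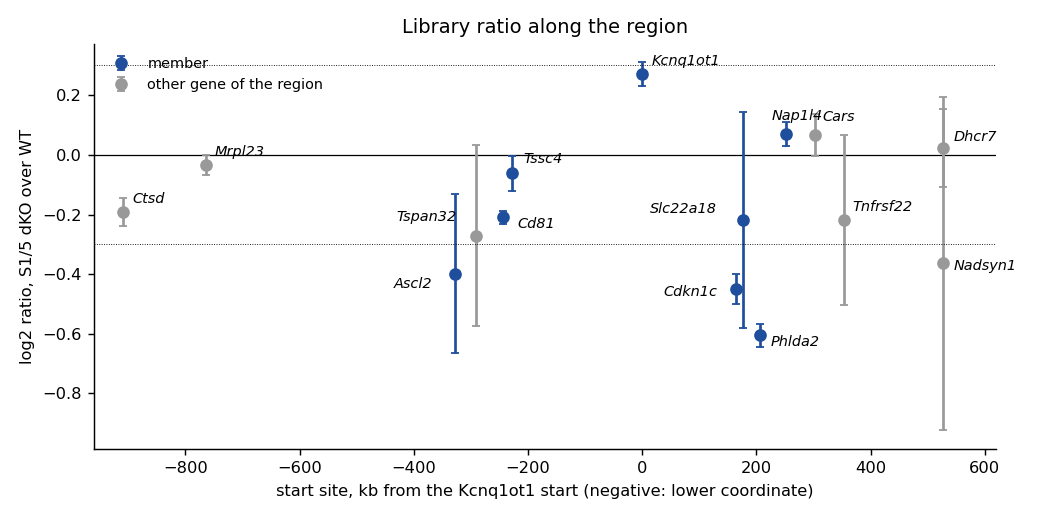
Log2 ratio of S1/5 dKO over WT (y axis) against the distance of each gene's start site from the Kcnq1ot1 start in kb (x axis), for members and other genes of the region with at least 50 UMIs in each library, with exact 95% intervals for counting error and dotted lines at 0.3 and −0.3. Cdkn1c (−0.45) and Phlda2 (−0.60) lie below, and Kcnq1ot1 (0.27) above, genes such as Nap1l4 (0.07) and Mrpl23 (−0.03).

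Factors known to act on imprinted domains were close in level in the libraries. Of 15 genes for Polycomb and H3K9 methylation (such as Ezh2, Eed and Ehmt2), for DNA methylation and its upkeep at imprints (such as Dnmt1, Uhrf1, Zfp57 and Trim28), and for Hnrnpk and Ctcf, 0 lay past 0.3 in either direction. Their log2 ratios ranged from −0.25 to 0.16. Of all genes with 200 or more UMIs, 4.95% lay at 0.3 or higher and 6.27% at −0.3 or lower. A count of 0 among 15 is near that share. Among 9 genes that, like Kcnq1ot1, are made from the paternal copy of maternally methylated regions, 9 lay at 0.3 or higher, with a median of 0.95 and a range from 0.65 (Zrsr1) to 3.05 (Mest). This list was drawn up with earlier results of these libraries known. The ratio of Kcnq1ot1, 0.27, was below the lowest of the 9.

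Single cells were compared after each was thinned at random to 10000 UMIs, which left out 43 WT and 67 S1/5 dKO cells that were shallower. Kcnq1ot1 was then seen in 53.2% of 2193 WT cells (interval 51.1 to 55.3) and in 56.3% of 2843 S1/5 dKO cells (interval 54.4 to 58.1). Without thinning the shares were 84.3% and 84.0%. Cdkn1c was seen in 40.4% of WT and 31.3% of S1/5 dKO cells (72.7% and 58.2% without thinning), and Phlda2 in 60.5% and 45.3% (86.0% and 72.1%). For Cdkn1c and Phlda2 the shares were lower in S1/5 dKO cells at equal depth, and the intervals did not overlap. Cd81 was seen in 93.0% and 91.0%, Nap1l4 in 58.7% and 61.3%, Tssc4 in 36.8% and 35.3%, Ascl2 in 2.51% and 2.32%, and Slc22a18 in 0.912% and 1.06%. Free RNA can place a UMI in a cell that does not make the transcript, and its level is given above.

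Kcnq1ot1, Cdkn1c and Phlda2 varied more between cells than counting alone gives. If every cell had held the same proportion, 62.5% of WT and 67.6% of S1/5 dKO cells would have shown Kcnq1ot1, 53.7% and 44.9% Cdkn1c, and 73.7% and 57.9% Phlda2, in each case more than were seen. The variance of the UMIs per cell over their mean, which is 1 for counting alone, was 1.74 and 1.99 for Kcnq1ot1, 2.63 and 3.305 for Cdkn1c and 2.02 and 1.97 for Phlda2, in WT and S1/5 dKO. Genes of like mean had a median ratio of 1.05 to 1.08, and 98.6% to 99.9% of them lay below these members. Cd81 had ratios of 1.84 and 1.64, above 95.2% and 94.2% of like genes. Tssc4 and Nap1l4 were near their like genes, at 1.05 to 1.10.

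**Figure D3:**
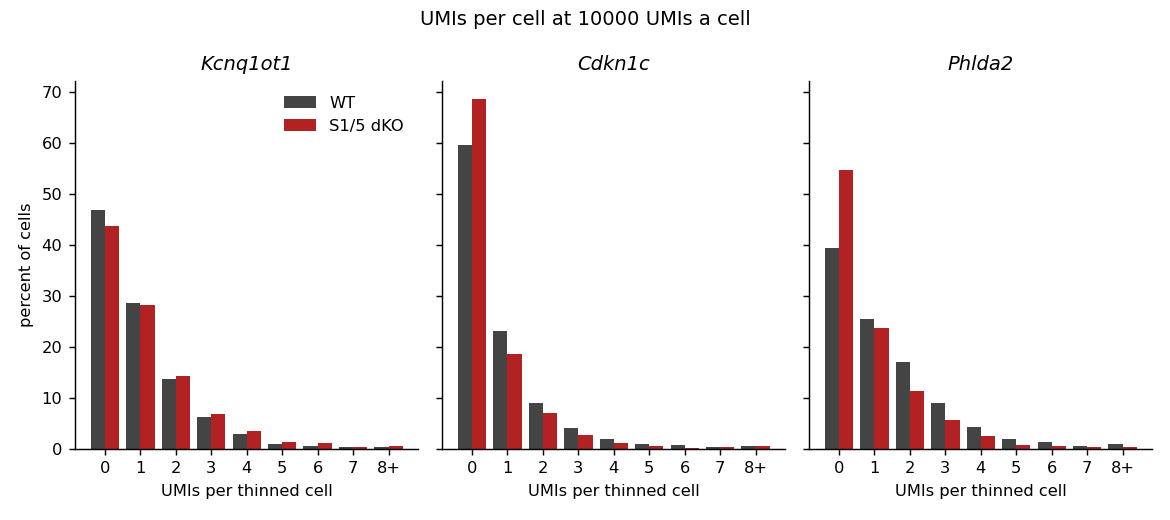
Percent of cells (y axis) with 0 to 7, or 8 or more, UMIs of Kcnq1ot1, Cdkn1c and Phlda2 after thinning to 10000 UMIs a cell (x axis), for 2193 WT and 2843 S1/5 dKO cells. S1/5 dKO cells hold more cells at 0 for Cdkn1c and Phlda2, and fewer for Kcnq1ot1.

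The tail of Cdkn1c was long. After thinning, 10 WT and 18 S1/5 dKO cells held 8 or more Cdkn1c UMIs, and the highest count was 24 in each library. Before thinning 1 WT cell held 219 Cdkn1c UMIs of its 143078, which is more than in any S1/5 dKO cell, where the highest was 67.

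Cells with high Cdkn1c tended to be those with high Phlda2. Both were seen in 27.4% of WT cells, where 24.4% would be expected if they were independent, and in 18.4% of S1/5 dKO cells, where 14.2% would be. The share of cells with neither was 26.5% in WT and 41.8% in S1/5 dKO. Pearson's r of log2(UMIs + 1) between the genes was 0.141 over 2193 WT cells and 0.208 over 2843 S1/5 dKO cells, and with r averaged over both libraries each was the gene most like the other among 2789 abundant genes. In WT alone Cdkn1c was closer to Car2 (0.164) and Tcf15 (0.143), and Phlda2 to Ldha (0.153). By the averaged r the next most like Cdkn1c were Tcf15 (0.151), a transcription factor, Car2 (0.142), a carbonic anhydrase, Arl4a (0.133) and Stmn1 (0.119). The next most like Phlda2 were Aprt (0.154), of purine salvage, and the glycolytic genes Ldha (0.150) and Aldoa (0.147). These are weak correlations in sparse counts from cells that share a library, and are given as a description.

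Kcnq1ot1 was not among the genes most like either of them. Its own list was led by Ncl (r = 0.257), Malat1 (0.250), Hnrnpu (0.242), Hspa4 (0.232) and L1td1 (0.230). Malat1 is a noncoding RNA held in the nucleus, and Ncl and Hnrnpu encode abundant nuclear RNA-binding proteins. Its correlation with Phlda2 was −0.06 in WT and −0.09 in S1/5 dKO, and with Cdkn1c −0.008 and −0.03. The annotated Kcnq1ot1 RNA of 93092 bases holds 8 runs of 12 or more A, none in its last 1000 bases, and where on the RNA its UMIs lie was not tested.

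Cells with a Kcnq1ot1 UMI were set against cells with none in the same library. This gave 1167 and 1026 WT cells, and 1600 and 1243 S1/5 dKO cells. The 7 coding members summed to a log2 ratio of −0.09 (interval −0.14 to −0.05) in WT and −0.05 (interval −0.10 to −0.01) in S1/5 dKO. Of genes with 1000 or more thinned UMIs, 10.4% of 2797 in WT and 25.2% of 3287 in S1/5 dKO had a lower ratio. The sum rested largely on Cd81, with 3928 of 7991 UMIs in WT cells with Kcnq1ot1 and 4760 of 9436 in S1/5 dKO. Phlda2 gave −0.15 (interval −0.26 to −0.05) in WT and −0.24 (interval −0.35 to −0.12) in S1/5 dKO, and Cdkn1c −0.006 and −0.03. Thinning is a random draw, so it was repeated 20 times, a check added after the values were seen. Over these draws Phlda2 ranged from −0.52 to −0.23 in S1/5 dKO (median −0.39) and from −0.18 to 0.05 in WT (median −0.07). Cdkn1c ranged from −0.39 to −0.01 in S1/5 dKO (median −0.21) and from −0.10 to 0.13 in WT. The sum of the 7 ranged from −0.11 to −0.04 in S1/5 dKO and from −0.07 to 0.04 in WT. The ratios of Phlda2, Cdkn1c and the sum kept 1 sign over the draws in S1/5 dKO and took both signs in WT. With 1 library each, the difference between the libraries was not tested.

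The same cells were then compared with all of their UMIs, which lowers the counting error. In S1/5 dKO the level of Phlda2 was 99.6 CPM in cells with 0 Kcnq1ot1 UMIs, 94.6 CPM with 1, 75.7 CPM with 2 and 57.9 CPM with 3 or more. From 0 to 3 or more the log2 ratio was −0.78 (interval −0.89 to −0.68), and 2 of 6563 genes with 1000 or more UMIs were as low or lower, Slc11a1 (−0.92) and Phlda2 itself. Cdkn1c in S1/5 dKO was at 58.0, 59.6, 54.5 and 41.9 CPM over the same classes, a log2 ratio of −0.47 (interval −0.60 to −0.35), the 9th lowest of the 6563 genes. The middle 90% of those genes lay between −0.21 and 0.61. For Cdkn1c, S1/5 dKO cells with any Kcnq1ot1 UMI over those with 0 gave only −0.10 (interval −0.18 to −0.03), with 7.07% of the 6563 genes lower.

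In WT the classes lay closer together. Phlda2 was at 140, 136, 125 and 124 CPM in cells with 0, 1, 2 and 3 or more Kcnq1ot1 UMIs, a log2 ratio of −0.17 (interval −0.26 to −0.09), with 4.83% of 6292 genes lower. Cdkn1c was at 74.1, 74.0, 81.7 and 82.3 CPM, a log2 ratio of 0.15 that rested on 1 cell. Without the cell that held 219 Cdkn1c UMIs it was −0.23 (interval −0.35 to −0.11). Also without that cell, WT cells with any Kcnq1ot1 UMI over those with 0 gave −0.006 (interval −0.07 to 0.06) for Cdkn1c.

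The other abundant coding members moved less or the other way. Nap1l4 was higher with more Kcnq1ot1, from 89.0 to 103 CPM in WT and from 91.1 to 115 CPM in S1/5 dKO. Its ratios, 0.21 and 0.33, lay inside the middle 90% of genes. Cd81 changed by −0.05 and −0.07 and Tssc4 by 0.007 and −0.13. The sparse members lay under about 3 CPM, too sparse to split cells by, and their values are given as a description. Over all UMIs they were lower in S1/5 dKO cells with Kcnq1ot1 than in those without. Slc22a18 had 59 UMIs in cells with and 68 in cells without it, a log2 ratio of −0.64 (interval −1.17 to −0.12), and 8 UMIs at 3 or more. Ascl2 had 104 and 114 UMIs, a log2 ratio of −0.57 (interval −0.97 to −0.18). Over the 20 thinning draws their ratios in S1/5 dKO took both signs, from −1.83 to 0.06 and from −1.35 to 0.26. In WT the intervals over all UMIs included 0 for both, at −0.29 and 0.17.

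**Figure D4:**
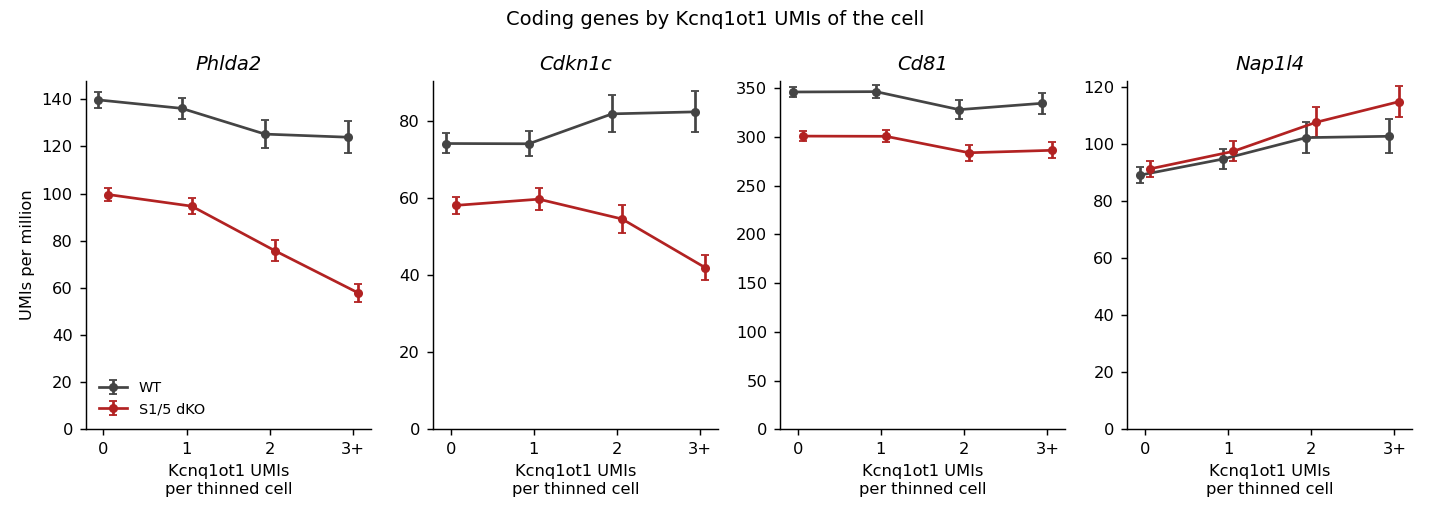
Level of Phlda2, Cdkn1c, Cd81 and Nap1l4 in CPM (y axis, from 0) in cells grouped by their Kcnq1ot1 UMIs after thinning (x axis), with exact 95% Poisson intervals over all UMIs of those cells. Phlda2 is at 99.6 CPM with 0 and 57.9 CPM with 3 or more in S1/5 dKO, and at 140 and 124 CPM in WT, and the WT point of Cdkn1c at 3 or more includes 1 cell with 219 UMIs.

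Cells with Kcnq1ot1 also differed in other measures. Before thinning their median was 40020 UMIs against 37726 without it in WT, and 36314.5 against 33189 in S1/5 dKO. After thinning they showed a median of 2813 against 2743 genes in WT and 2819 against 2744 in S1/5 dKO. Malat1 was at 1239 against 981 CPM in WT and 1305 against 973 CPM in S1/5 dKO. Their part in the values above was not tested.

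The difference between the libraries was present in every class of Kcnq1ot1 UMIs. At 0, 1, 2 and 3 or more Kcnq1ot1 UMIs, the log2 ratio of S1/5 dKO over WT in thinned cells was −0.58, −0.56, −0.64 and −0.94 for Phlda2, and −0.36, −0.15, −0.57 and −0.69 for Cdkn1c. Phlda2 and Cdkn1c were thus lower in S1/5 dKO also among cells with no Kcnq1ot1 UMI after thinning. The interval for Cdkn1c at 1 UMI (−0.33 to 0.03) included 0. Without thinning, 84.3% of WT and 84.0% of S1/5 dKO cells showed Kcnq1ot1. Many cells of the 0 class therefore hold the RNA, and the class does not mark its absence.

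Mest, which encodes a protein of the alpha/beta hydrolase family, is made from the paternal copy of another maternally methylated region and was present in few WT cells. With all UMIs it was seen in 250 of 2236 WT cells and in 2548 of 2910 S1/5 dKO cells, which allowed the domain to be read in WT cells that do and do not show it. In empty barcodes it was at 14.2 CPM in WT, not below the 11.3 CPM of the WT cells, and how many of the 250 hold Mest from free RNA was not tested.

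Kcnq1ot1 was at 119 CPM in WT cells with Mest and 93.2 CPM in those without, a log2 ratio of 0.35 (interval 0.27 to 0.43). In S1/5 dKO it was at 118 CPM with and 93.9 CPM without Mest, a log2 ratio of 0.33 (interval 0.24 to 0.43). Within cells of like Mest status the libraries then differed by −0.004 (with Mest, interval −0.08 to 0.08) and 0.01 (without Mest, interval −0.09 to 0.11). In thinned cells, where fewer cells of S1/5 dKO count as having Mest (1575 of 2843), these differences were 0.03 and 0.12 (interval 0.02 to 0.22). The ratio of Kcnq1ot1 with over without Mest in thinned S1/5 dKO cells was 0.18 (interval 0.08 to 0.28), below that over all UMIs. Over the 20 other draws it had a median of 0.13 in S1/5 dKO (0.006 to 0.24) and 0.45 in WT (0.16 to 0.70).

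Phlda2 was at 91.6 CPM in WT cells with Mest and 141 CPM in WT cells without, a log2 ratio of −0.62 (interval −0.71 to −0.53). In S1/5 dKO it was at 88.6 CPM with and 89.2 CPM without Mest, a log2 ratio of −0.01 (interval −0.11 to 0.09). WT cells with Mest therefore stood near the S1/5 dKO level of Phlda2, at a library ratio of −0.05 (interval −0.14 to 0.04), while cells without Mest differed between libraries by −0.66 (interval −0.76 to −0.56). In thinned cells these library ratios were −0.10 (interval −0.35 to 0.16) and −0.65 (interval −0.75 to −0.55).

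Cdkn1c was lower with Mest in both libraries, at 63.9 against 77.7 CPM in WT and 53.8 against 74.8 CPM in S1/5 dKO. The log2 ratios were −0.28 (interval −0.39 to −0.17) and −0.47 (interval −0.59 to −0.36), but at 5000 UMIs a cell the WT ratio was 0.076. The library ratio of Cdkn1c was −0.25 (interval −0.36 to −0.14) with Mest and −0.05 (interval −0.17 to 0.06) without over all UMIs. In thinned cells the order was the other way, −0.15 (interval −0.46 to 0.17) and −0.27 (interval −0.39 to −0.14). Cd81 differed by 0.06 in WT and −0.14 in S1/5 dKO. S1/5 dKO cells without Mest were shallower, with a median of 27756.5 UMIs against 35633 in those with it, while in WT the medians were 38452.5 and 40914.5.

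**Figure D5:**
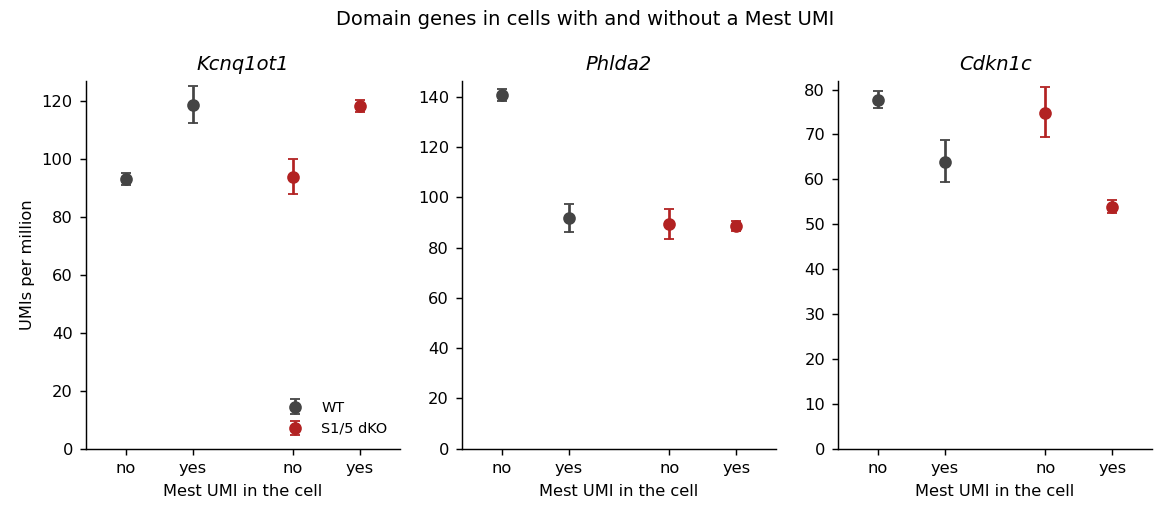
Level of Kcnq1ot1, Phlda2 and Cdkn1c in CPM (y axis, from 0) in cells without and with a Mest UMI (x axis) in each library, over all UMIs, with exact 95% Poisson intervals. Phlda2 is at 141 CPM in WT cells without Mest and between 88.6 and 91.6 CPM in the other 3 groups.

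The relation of Phlda2 to Kcnq1ot1 was also read within Mest status, a division made after the values were seen. Over all UMIs in S1/5 dKO it was −0.34 (interval −0.40 to −0.28) in cells with Mest and 0.07 (interval −0.13 to 0.27) in those without (170 cells with and 140 without Kcnq1ot1). In thinned S1/5 dKO cells it was −0.23 (interval −0.38 to −0.07) with Mest and −0.25 (interval −0.43 to −0.08) without. The thinned group without Mest held 1268 cells, most of which show Mest over all UMIs. The thinned values therefore cannot show whether the relation depends on Mest, which was not tested. In WT it was −0.19 (interval −0.38 to −0.009) with Mest and −0.05 (interval −0.11 to −0.001) without over all UMIs, and −0.41 (interval −0.91 to 0.09) and −0.13 (interval −0.24 to −0.02) in thinned cells. For Cdkn1c in S1/5 dKO the relation took both signs. Over all UMIs it was −0.13 (interval −0.21 to −0.05) with Mest and 0.14 (interval −0.08 to 0.36) without. Thinned S1/5 dKO cells gave −0.28 (interval −0.48 to −0.08) with Mest and 0.26 (interval 0.05 to 0.46) without.

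Phases were called from S and G2/M gene scores and are ranges of a score, not cell types. With scanpy 19.4% of WT and 17.4% of S1/5 dKO cells were called S and 79.3% and 81.7% G2/M, which left only 29 and 24 cells as G1. With Seurat 27.2% and 24.1% were called G1, so readings against G1 depend on the caller. By Seurat Kcnq1ot1 was at 83.8, 100 and 101 CPM in G1, S and G2/M of WT and at 89.5, 116 and 127 CPM in S1/5 dKO. It was thus lower in G1 than in G2/M in both libraries, by 0.27 (interval 0.19 to 0.34) and 0.50 (interval 0.44 to 0.58) in log2. Cdkn1c was near level, at 73.3 to 80.1 CPM in WT and 52.3 to 58.1 CPM in S1/5 dKO. In the few scanpy G1 cells it was at 148 CPM in WT (43 UMIs) and 192 CPM in S1/5 dKO (46 UMIs).

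The library ratio of Phlda2 was −0.59, −0.57 and −0.62 and that of Cdkn1c −0.49, −0.46 and −0.43 in G1, S and G2/M by Seurat. Kcnq1ot1 differed by 0.10, 0.21 and 0.33. Within phases the relation of Phlda2 to Kcnq1ot1 in S1/5 dKO was −0.40 in G1, −0.10 in S (interval −0.21 to 0.02) and −0.35 in G2/M. In WT it was −0.29, −0.20 and 0.06 (interval −0.009 to 0.13). In thinned cells with scanpy phases it was −0.22 in S and −0.13 (interval −0.25 to −0.01) in G2/M of WT, and 0.01 in S and −0.30 in G2/M of S1/5 dKO. The WT sign in G2/M thus depends on the processing, while in S1/5 dKO Phlda2 was lower with Kcnq1ot1 in G2/M both ways. The relation of Cdkn1c to Kcnq1ot1 took both signs by Seurat phase over all UMIs. In S1/5 dKO it was 0.12 in G1 (interval −0.04 to 0.29), 0.11 in S (interval −0.04 to 0.26) and −0.30 in G2/M. In WT it was −0.19, −0.19 and 0.32. The WT cells include the 1 with 219 Cdkn1c UMIs, whose part in these values was not tested. In thinned cells with scanpy phases the G2/M values were 0.03 (interval −0.13 to 0.19) in WT and −0.05 (interval −0.21 to 0.11) in S1/5 dKO. Those in S were −0.23 (interval −0.54 to 0.08) and 0.26 (interval −0.09 to 0.62). All of these thinned intervals include 0, so the opposite signs in G2/M depend on the processing.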

How the data were processed

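The authors made the libraries with a droplet 3′ kit, and per the labels aligned and counted reads with Cell Ranger 3.0.2 on mm10. The deposited values are whole-number UMI counts per gene and barcode, unfiltered. The 8 genes, the lists and the divisions of cells were chosen with earlier results of these data known, and the named genes are these, the lists and the 5 genes most like each of 3 members, of which 1 is not reported here, plus 6 genes at the low end of the Kcnq1ot1 division, named after their values were seen. UMIs were summed per library and scaled to CPM. Log2 ratios have conditional binomial intervals. A gene counts as past the fold at 0.3 with 50 or more UMIs over both libraries. Sums, ratios and intervals were tested on simulated counts. Tools were Python 3.11.15, scanpy 1.11.5, edgeR 4.0.16 (TMM factors only) and Seurat 5.3.0. Gene positions are from GENCODE vM21 (GRCm38). Alternatives were cell filters, thinning depth, scaling and minimum UMIs. Those added after seeing the data were repeated draws, levels over all UMIs, 1 cell left out, Seurat phases and divisions within phase or Mest.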

Additional observations from a re-analysis of the deposited data

How the results depend on the processing

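No paired analysis was possible because each genotype has 1 library and no test was made, and no replicate could be left out. The members at −0.3 or lower numbered 2 or 3 under every alternative for cells and scaling, Ascl2 falling out in thinned cells and in the mean of per-cell CPM. The library ratio of Kcnq1ot1 was 0.20 in thinned cells, against a median of 0.25 over 20 other draws. For the 7 coding members summed in WT cells with over without Kcnq1ot1, the sign turned at 5000 UMIs (0.020) and without thinning (0.0074). It was −0.024 at 20000 UMIs, −0.0068 over all UMIs, −0.030 as a mean over cells, −0.018 without the cell with the most UMIs and −0.011 as the median of draws, so no direction holds in WT. In S1/5 dKO it was −0.11 at 20000 UMIs, −0.11 without thinning and −0.10 at 2 or more Kcnq1ot1 UMIs. Phlda2 in WT turned to 0.019 without thinning. The share of cells with Kcnq1ot1 was 33.7% and 38.2% at 5000 UMIs, and 84.3% and 84.0% without thinning, in WT and S1/5 dKO. By Mest, Kcnq1ot1 in S1/5 dKO moved from 0.18 in thinned cells to 0.33 over all UMIs, and Cdkn1c in WT was 0.076 at 5000 UMIs, against −0.36 at 10000. From G1 to G2/M, Cdkn1c was −0.996 and −1.70 by scanpy but 0.045 and 0.097 by Seurat, in WT and S1/5 dKO, and Phlda2 in WT was 0.70 and −0.11. The causes were not tested. Counting intervals are narrower than the spread of overdispersed genes over cells, and levels under about 3 CPM were too sparse to split cells by.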

Other observations

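The genes lowest in S1/5 dKO cells with 3 or more Kcnq1ot1 UMIs, against cells with 0, were Slc11a1 (−0.92), Phlda2 (−0.78), Ripk3 (−0.59), Gpsm3 (−0.53) and Arhgap8 (−0.52), named after their values were seen. In WT the list was led by Tagln (−0.98) and Rhox5 (−0.69), with neither Phlda2 nor Cdkn1c among the lowest 10.

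In thinned cells with neither Cdkn1c nor Phlda2 the level of Kcnq1ot1 was 109 CPM in WT (interval 101 to 118) and 127 CPM in S1/5 dKO (interval 120 to 133). In cells with both it was 92.2 CPM (interval 84.6 to 100.2) and 93.3 CPM (interval 85.2 to 102). Cells with Cdkn1c only were at 106 CPM (interval 94.7 to 119) in WT and 120 CPM (interval 109 to 131) in S1/5 dKO. Cells with Phlda2 only were at 90.9 CPM (interval 84.1 to 98.1) and 101 CPM (interval 94.4 to 109). In this 1 draw the level was thus lower in cells with Phlda2, whether or not Cdkn1c was seen. In WT the intervals of cells with both and of cells with Cdkn1c only overlapped. Over the 20 other draws the WT ratio of Phlda2 in cells with over without Kcnq1ot1 took both signs (−0.18 to 0.05), so no direction is read in WT.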
